A study of Homo sapiens with 6 samples.

Results

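Genes that cells use to sense foreign RNA and to switch on interferon responses were examined in Hep3B cells. They were chosen by name, as 4 RNA sensors (DDX58, IFIH1, DHX58 and TLR3) and 5 transcription factors (STAT2, IRF1, IRF3, IRF7 and IRF9), from the 23228 genes of the deposited tables, and all 9 had a row there. Hep3B is a long-established line grown from a human liver cancer. The study compared cells carrying a non-targeted control shRNA with cells carrying shRNA against PELP1, with 3 RNA sequencing libraries in each group. Both groups were made with lentiviral particles. The labels give puromycin selection and pooling of stable clones for the knockdown cells, and growth in RPMI medium for all. The library titles name the first of the study's PELP1 shRNAs, while the protocol lists both, so the shRNA in these libraries is uncertain.

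In the cytoplasm, RIG-I, the product of DDX58, recognizes RNA with uncapped ends, and MDA5, the product of IFIH1, long double-stranded RNA. LGP2, the product of DHX58, is a related helicase that modulates both. These helicases signal through MAVS and the kinase TBK1, whereas TLR3 senses double-stranded RNA in endosomes and signals through TICAM1, and both routes activate IRF3 and IRF7 to induce interferon genes. Secreted interferon then acts through the receptor chains IFNAR1 and IFNAR2 and the kinases JAK1 and TYK2 on a complex that contains STAT2 and IRF9 and binds the interferon-stimulated response element (ISRE) of its target genes. IRF1 is induced by interferon-gamma through a promoter site called GAS and activates antiviral genes directly.

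Of the 9 genes, 6 were higher under the PELP1-KD label than in control, none was lower by edgeR or DESeq2 (all 8 tested had a positive log2 fold change), 2 were not called, and DHX58 was too rare to test. The increases were largest for IRF1 and TLR3, at about the same log2 fold change (log2 FC, PELP1-KD over control, 1.30 and 1.27), followed by IFIH1 (0.88), IRF9 (0.62), STAT2 (0.44) and IRF3 (0.20). DDX58 (0.18) and IRF7 (0.34) did not pass the threshold. A gene was called at an adjusted p below 0.05 from edgeR's quasi-likelihood test, with Benjamini-Hochberg adjustment over the 14537 genes that passed its filter on low counts. Of all tested genes, 26.8% were called higher and 26.8% lower, so a call by itself was common in this comparison. Among the 8 tested genes of the set 6 were called higher (75%). The median log2 fold change of the 8 was 0.53, beside 0.0044 over all tested genes. The set was chosen with earlier results of these data known, so these values are a description and not a test. Of the 8, 2 (IRF1 and TLR3) rose by at least 2-fold, beside 2.85% of tested genes in that direction.

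The libraries held 26758363 to 34456542 reads on genes, with the 3 libraries labelled PELP1-KD below the 3 controls. PELP1, the targeted gene, had normalized reads of 4893, 4914 and 5102 in control and of 4421, 4825 and 4840.2 in the libraries labelled PELP1-KD. The fitted log2 FC was −0.08 (standard error, SE, 0.04, 95% interval −0.17 to 0.0040, adjusted p = 0.101), and under a replicate block the adjusted p was 0.0106. As PELP1 RNA was at 94.5% of control, every direction given here is that of the labels. All 9 markers of hepatocytes and hepatoma cells examined were expressed, and they moved both ways. ALB (log2 FC −0.61), TTR (−0.61), SERPINA1 (−0.46), TF (−0.33), GPC3 (−0.24) and APOA1 (−0.13) were called lower. AFP (0.62), HNF4A (0.23) and FGB (0.17) were called higher. Their summed normalized reads were 814637 to 827394 in control and 733553 to 744245 in the libraries labelled PELP1-KD. Of 7 leukocyte markers, CD3E and PTPRC had at most 2 and 5 reads in a library. The summed normalized reads of the leukocyte markers, mostly LYZ in control and LYZ and CD68 under the PELP1-KD label, were 5679 to 6025 in control and 3460.4 to 3557 in the libraries labelled PELP1-KD. Of these LYZ (log2 FC −1.55) and CD14 (−0.98) were called lower and CD68 (0.48) higher. What part any of these cell type markers has in the results was not tested. The 4 endothelial markers summed to between 60.7 and 72.8 normalized reads in all libraries, with CDH5 and KDR at 0. The 5 fibroblast markers summed to between 258 and 277 in control and between 283 and 308 in the libraries labelled PELP1-KD, with no more than 4 reads of DCN in any library. Within the fibroblast list the sum hid opposite changes, COL1A1 at log2 FC 1.44 (adjusted p = 3.4e-09) and PDGFRB at −2.13 (adjusted p = 9.91e-10). In bulk RNA, fewer expressing cells and less RNA per cell cannot be told apart.

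The start sites of the genes that rose most, and of DDX58, which was not called, are shown. They are given as the 200 bases before the start annotated in the deposited tables. These were read from the GRCh37 genome, which is the build of the tables (hg19). Capitals mark matches to the ISRE core (GAAA, any 2 bases, GAAA) or to the GAS pattern TTCNNNGAA, searched on both strands from 250 bases before to 50 bases after the start. The windows are IRF1 at chr5:131826466-131826665 (minus strand), IFIH1 at chr2:163175040-163175239 (minus strand), TLR3 at chr4:186990109-186990308 (plus strand) and DDX58 at chr9:32526323-32526522 (minus strand).
IRF1: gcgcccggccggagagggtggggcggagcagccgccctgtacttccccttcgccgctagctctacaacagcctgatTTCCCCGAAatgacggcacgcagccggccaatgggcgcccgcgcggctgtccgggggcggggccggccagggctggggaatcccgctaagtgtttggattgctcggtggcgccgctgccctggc
IFIH1: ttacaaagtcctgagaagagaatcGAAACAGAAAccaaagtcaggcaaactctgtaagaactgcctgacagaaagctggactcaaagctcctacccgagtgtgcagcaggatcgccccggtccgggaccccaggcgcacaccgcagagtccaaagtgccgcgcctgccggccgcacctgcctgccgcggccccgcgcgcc
TLR3: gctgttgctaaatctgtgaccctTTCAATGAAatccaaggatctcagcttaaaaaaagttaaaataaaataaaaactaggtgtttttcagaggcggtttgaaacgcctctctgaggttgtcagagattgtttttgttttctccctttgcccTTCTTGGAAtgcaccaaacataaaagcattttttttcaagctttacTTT
DDX58: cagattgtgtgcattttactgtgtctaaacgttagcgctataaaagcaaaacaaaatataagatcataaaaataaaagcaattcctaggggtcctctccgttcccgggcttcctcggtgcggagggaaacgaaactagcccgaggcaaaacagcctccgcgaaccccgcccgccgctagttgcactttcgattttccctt
The IRF1 window held 1 GAS match, TTCCCCGAA, beginning 124 bases before the start. IFIH1 held an ISRE core, GAAACAGAAA, beginning 176 bases before the start on the strand of the gene. TLR3 held 2 GAS matches, beginning 177 and 49 bases before the start, and an ISRE core on the opposite strand, TTTCACTTTC, which begins 3 bases before the start, so that only its first letters are printed above. Neither pattern was in the DDX58 window, but this held GAAACGAAA, in which 1 base and not 2 lies between the GAAA letters.

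Over the 9 genes, 3 windows held an ISRE core (IFIH1, DHX58 and TLR3) and 4 held a GAS match (TLR3, IRF1, IRF7 and IRF9). Of 22874 windows of the same length around annotated starts, 3.29% held the ISRE core and 7.10% the GAS pattern. STAT2 and IRF3 held neither. DHX58 held its 2 overlapping ISRE matches just after the start, and this gene was almost unread. The presence of a pattern was thus found both in genes that rose and in genes that were not called or not tested. These are matches of letters only, and they can depend on the start taken. Of the 9 windows, only that of IRF1 was identical to a RefSeq start window. RefSeq windows on GRCh38.p14 were at hand for 6 of the 9 genes. Of these, IFIH1 and TLR3 held the ISRE core, and TLR3, IRF1 and IRF9 the GAS pattern. Over 27305 genes with such windows the shares were 4.38% and 9.38%.

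Scaled for exon length and library size (RPKM), the 9 genes spanned a wide range. In control, IRF3 was the most abundant at 41.2 ± 1.57 RPKM (SD, n = 3), followed by IRF1 (9.53 ± 0.160), STAT2 (8.74 ± 0.193), IRF9 (6.67 ± 0.711), IFIH1 (2.98 ± 0.0716) and DDX58 (2.03 ± 0.141). TLR3 (0.408 ± 0.0189) and IRF7 (0.403 ± 0.136) overlapped in their control libraries and were not separated, and DHX58 was last at 0.00773 RPKM. Every other pair of neighbours in this order was separated, the lowest library of the upper gene lying above the highest of the lower. The order of the means was the same in the libraries labelled PELP1-KD, where IRF3 was at 47.3 ± 1.56 RPKM and IRF1 at 23.5 ± 0.873 (SD, n = 3 each). There TLR3 (0.985 ± 0.0938) and IRF7 (0.508 ± 0.0341) were separated.

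**Figure D1:**
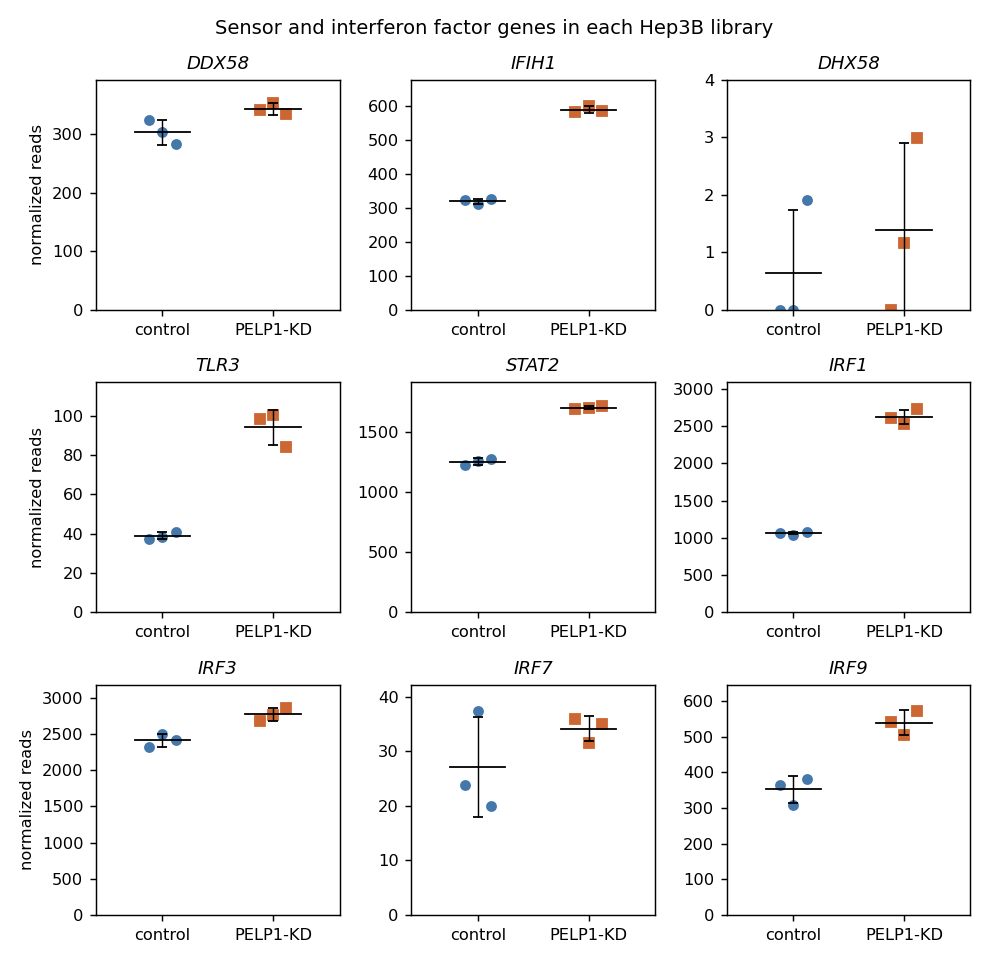
Normalized reads of each gene (y axis, from 0) in the 3 control libraries (circles) and the 3 libraries labelled PELP1-KD (squares), with bars for the mean and whiskers for the SD. For IRF1, TLR3, IFIH1, IRF9, STAT2, IRF3 and DDX58 every square lies above every circle, whereas IRF7 and DHX58 overlap.

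Among the sensors, IFIH1 showed the clearest change. This gene (chromosome 2 of hg19, 163123589 to 163175039, minus strand) had 323, 311 and 326 normalized reads in the control libraries against 583, 602 and 585 under the PELP1-KD label. The groups were far apart and each was tight, with the lowest value labelled PELP1-KD well above the highest control. The log2 FC was 0.88 (SE 0.07, adjusted p = 1.87e-09), a 1.84-fold rise. With each library left out in turn it stayed between 0.86 and 0.90 and was called each time.

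TLR3 (chromosome 4, 186990309 to 187006252, plus strand) was much rarer, at 37.6, 38.3 and 41.0 normalized reads in control. It had 98.3, 100.3 and 83.9 in the libraries labelled PELP1-KD, replicate 3 being the lowest of these and still above 2 times the control level of any library. Its log2 FC of 1.27 (SE 0.17, adjusted p = 3.4e-06) has a 95% interval from 0.91 to 1.62, so its place beside IRF1 is not settled by these counts.

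DDX58 (chromosome 9, 32455300 to 32526322, minus strand) had 325, 303 and 282 normalized reads in control against 342, 354 and 334 under the PELP1-KD label. The groups did not overlap, as for 29.5% of tested genes in this direction, but the gap between them was smaller than the range of the controls. The log2 FC of 0.18 (SE 0.08, 95% interval 0.0068 to 0.35) had an adjusted p of 0.0742. Under a replicate block the adjusted p was 0.0486, and without control replicate 1 it was 0.0498 at a log2 fold change of 0.23. RIG-I transcripts were therefore near the threshold, and the upper end of the interval was 0.35 on the log2 scale. The interval covers the spread between these libraries only.

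DHX58 (chromosome 17, 40253422 to 40264751, minus strand) had 0, 0 and 2 reads in control and 0, 1 and 3 reads in the libraries labelled PELP1-KD. Values of up to 3 reads are at the limit that a count of 0 allows, so LGP2 transcripts were not detectable as different between the groups at this depth and no fold is given.

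The reads of IFIH1 and DDX58 can also be compared within a library, which needs no scaling between libraries. This and the other ratios below, 5 in all, were chosen after the values had been seen. Adjusted by Benjamini-Hochberg over the 5, a permutation p of 0.1 becomes 0.125, so no ratio can pass a threshold of 0.05 in this design. The libraries held 0.994, 1.03 and 1.16 IFIH1 reads for each DDX58 read in control against 1.70, 1.70 and 1.75 under the PELP1-KD label. The mean ratio was 1.06 ± 0.0849 in control and 1.72 ± 0.0296 under the PELP1-KD label (SD, n = 3 each), a 1.62-fold difference with no overlap (exact two-sided permutation test, p = 0.1, the smallest that 3 against 3 libraries allow). No library of one group reached the ratio of the other.

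Of the transcription factors, IRF1 (chromosome 5, 131817301 to 131826465, minus strand) changed most. It had 1071, 1045 and 1079 normalized reads in control against 2609, 2532 and 2726 under the PELP1-KD label. Both groups were tight and each library labelled PELP1-KD held over 2 times the reads of any control. The log2 FC was 1.30 (SE 0.05, 95% interval 1.20 to 1.40, adjusted p = 9.34e-15), a 2.46-fold rise, and only 1.72% of tested genes had a higher log2 fold change. The opposite-strand gene C5orf56 overlaps 303 bases of IRF1 exon. The counts were made by strand.

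IRF9 and STAT2, which act in the complex that carries the signal of type I interferon, both rose. IRF9 (chromosome 14, 24630422 to 24635774, plus strand) had 366, 309.6 and 381 normalized reads in control against 541, 504 and 573 under the PELP1-KD label, at log2 FC 0.62 (SE 0.08, adjusted p = 3.24e-06). STAT2 (chromosome 12, 56735382 to 56754037, minus strand) had 1219, 1260.4 and 1272 in control against 1688, 1695 and 1712 under the PELP1-KD label, at log2 FC 0.44 (SE 0.05, adjusted p = 1.08e-07). Neither gene overlapped between the groups. The ratio of IRF9 to STAT2 reads was 0.282 ± 0.0312 in control and 0.317 ± 0.0189 in the libraries labelled PELP1-KD (SD, n = 3 each; exact two-sided permutation test, p = 0.3, where 0.1 is the smallest possible), and the groups overlapped. This test does not use the replicate numbers. The ratio was higher under the PELP1-KD label in each of the 3 same-numbered pairs (0.300 to 0.320, 0.246 to 0.297 and 0.299 to 0.335). The numbers set only replicate 3 apart, and the other replicates also correlated crosswise. Control replicate 1 (0.300) was above PELP1-KD replicate 2 (0.297).

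IRF3 and IRF7 encode the factors that the sensors activate by phosphorylation, a step that RNA levels do not measure. IRF3 (chromosome 19, 50162826 to 50169132, minus strand) had 2318, 2502 and 2418 normalized reads in control against 2685, 2763 and 2868 under the PELP1-KD label. The groups did not overlap, but the rise of 1.15-fold was small, with a log2 FC of 0.20 (SE 0.04, adjusted p = 0.000657). It shares 245 exon bases with BCL2L12 on the opposite strand. IRF7 (chromosome 11, 612555 to 615999, minus strand) was rare, at 23.8, 37.4 and 20.03 normalized reads in control against 35.8, 31.5 and 35.0 under the PELP1-KD label. Control replicate 2 was the highest of all 6 libraries. The log2 FC of 0.34 (SE 0.26, adjusted p = 0.291) has a 95% interval from −0.21 to 0.88.

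The ratio of STAT2 to IRF3 reads was 0.519 ± 0.0127 in control and 0.613 ± 0.0158 under the PELP1-KD label (SD, n = 3 each; exact two-sided permutation test, p = 0.1). IRF1 was also set beside other IRF genes of the same library. The ratio of IRF1 to IRF3 reads was 0.462, 0.418 and 0.446 in control against 0.971, 0.916 and 0.951 under the PELP1-KD label. Against IRF2, which encodes a factor known to oppose IRF1 at the same sites, the ratio was 2.22 ± 0.104 in control and 4.60 ± 0.199 under the PELP1-KD label (SD, n = 3 each). Neither ratio overlapped between the groups (exact two-sided permutation test, p = 0.1 for each, the smallest possible). IRF2 itself had a log2 FC of 0.26 (SE 0.07, adjusted p = 0.0044) and was picked with its values known.

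**Figure D2:**
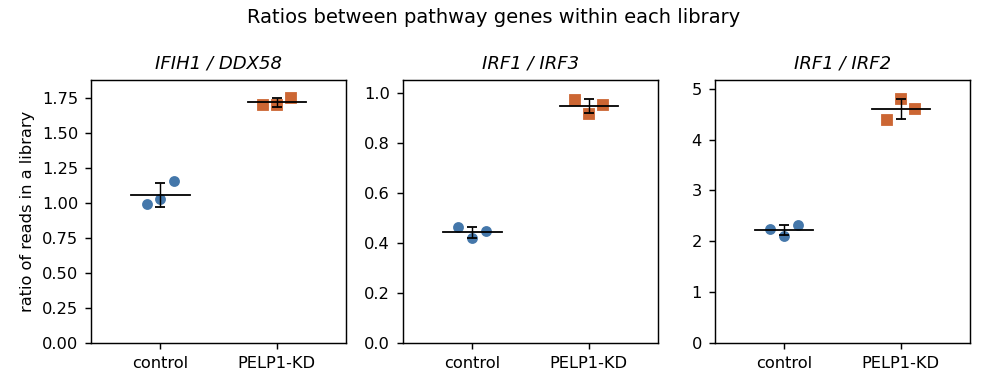
Ratio of the reads of 2 genes within each library (y axis, no unit, from 0) for IFIH1 over DDX58, IRF1 over IRF3 and IRF1 over IRF2, with circles for control, squares for PELP1-KD, bars for the mean and whiskers for the SD. In each panel the 3 squares lie above the 3 circles, with means of 1.06 and 1.72, 0.442 and 0.946, and 2.22 and 4.60.

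The partners closest to these genes did not move as one. MAVS, the adaptor of the cytoplasmic sensors, rose slightly, from 6739 ± 183 to 7503 ± 459 normalized reads (SD, n = 3 each), at log2 FC 0.16 (SE 0.04, adjusted p = 0.00378). TICAM1, the adaptor of TLR3, fell from a mean of 1137 ± 19.2 normalized reads to 664 ± 43.4 (SD, n = 3 each), at log2 FC −0.77 (SE 0.06, adjusted p = 9.08e-10). TLR3 and its adaptor thus moved in opposite directions. TBK1 was not called, with a log2 FC of −0.06 (SE 0.06, adjusted p = 0.479). Of 18 adaptors and kinases, all tested, 3 were called higher (16.7%) and 7 lower (38.9%), beside 26.8% of all tested genes each way, with a median of −0.06. IKBKE, a kinase related to TBK1, rose by a log2 fold change of 0.22, and MAP3K7, the kinase TAK1, had −0.23.

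The genes of interferon itself were almost unread. Of 21 interferon genes listed, 17 had 0 reads in every library, none passed the filter, and all of them together had 14 reads in the 6 libraries. IFNB1, the interferon-beta gene, had 3, 2 and 1 reads in control against 2, 2 and 1 under the PELP1-KD label. IFNB1 was thus read in every library, but at a very low level. All its values were at or under 3 reads, where a difference is treated as not detectable at this depth. RNA of the receptor chain IFNAR2 rose by a log2 FC of 0.34 (SE 0.05, adjusted p = 4.73e-06) and that of IFNAR1 was called lower (log2 FC −0.13, SE 0.05, adjusted p = 0.0331). The call of IFNAR1 ended on leaving out any of 4 libraries (control replicate 1 or 2, PELP1-KD replicate 2 or 3), at an adjusted p of up to 0.145. Of 15 receptor and JAK-STAT genes, 7 were called higher (46.7%) and 2 lower (13.3%), beside 26.8% of all tested genes each way. JAK1 rose by 0.46 and STAT6 by 0.53 on the log2 scale, and IFNGR2, a chain of the interferon-gamma receptor, fell by 0.31 on the log2 scale.

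**Figure D3:**
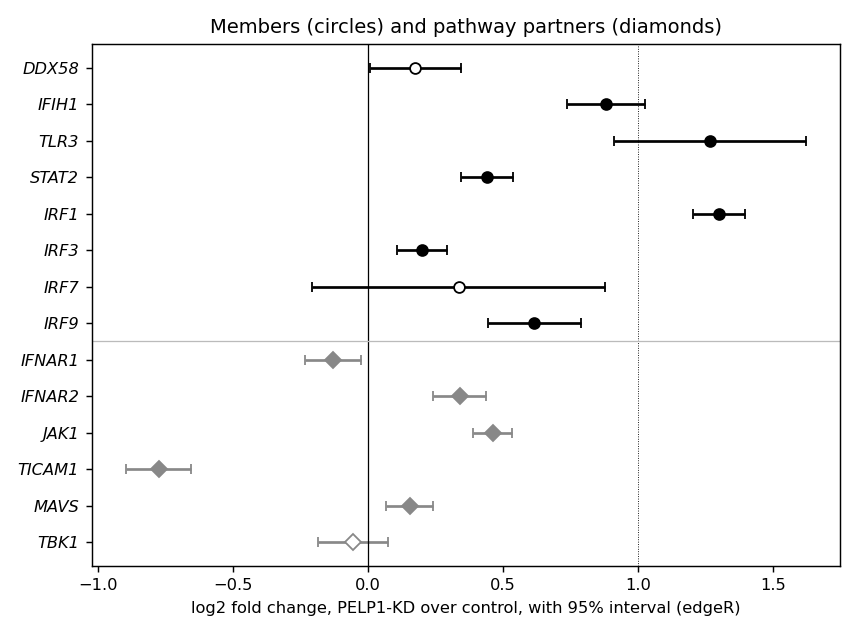
Log2 fold change of PELP1-KD over control (x axis) with its 95% interval from edgeR for the 8 tested sensor and factor genes (circles) and 6 partners (diamonds). Filled symbols have an adjusted p below 0.05. IRF1 and TLR3 lie past the dotted line at a log2 fold change of 1, and TICAM1 is at −0.77.

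Of 16 tested regulators of the sensors, 4 were called higher (25%) and 5 lower (31.25%), shares near those of all tested genes (26.8% each way). DDX60, a helicase gene induced by interferon, rose from a mean of 107 ± 9.43 normalized reads to 409 ± 28.2 (SD, n = 3 each), at log2 FC 1.93 (SE 0.10, adjusted p = 2.67e-12), and TRIM25, which ubiquitinates RIG-I, by 0.53. HMGB1 (−0.99) and NLRX1 (−0.46) were lower, and HMGB1 has many near-identical pseudogenes, which makes its value uncertain. Of 10 tested other RNA and DNA sensors, 3 were called higher (30%), among them ZNFX1 (0.45) and ADAR (0.18), and 5 lower (50%), among them DHX9 (−0.29) and SLFN11 (−1.19). The 6 tested genes among the other IRF genes and IRF2-binding proteins were split evenly, with 3 called in each direction. There IRF8 (0.76) and IRF2BPL (0.26) were higher, and IRF5 (−0.97) and IRF2BP2 (−0.11) lower. Without control replicate 1, IRF2BP2 was not called (adjusted p = 0.0708). Of 9 tested Toll-like receptors and their adaptors, 4 were called higher (44.4%) and the other 5 were not called, with MYD88 at 0.31 and the rare TLR7, a sensor of single-stranded RNA, at 1.37.

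Most interferon-stimulated targets were higher, as were IRF1, IRF9 and STAT2. Of 53 listed, 38 were tested. Of these, 29 were called higher (76.3%, beside 26.8% of all tested genes) and 4 lower. The median log2 fold change was 0.70, beside 0.0044 over all tested genes. This list was also drawn up with earlier results of these data known, so its share is a description. OAS3, which makes the activator of RNase L, rose from a mean of 1470 ± 36.2 normalized reads to 3821 ± 47.7 (SD, n = 3 each), at log2 FC 1.38 (SE 0.04, adjusted p = 6.36e-16). UBE2L6, the conjugating enzyme for ISG15, rose by 1.08. The 4 lower genes, named after their values had been seen where the rule did not pick them, were IFITM1 (−0.95), IFITM2 (−1.28), IFITM3 (−0.65) and CXCL10 (−0.20). The IFITM genes are near-identical neighbours whose reads may be divided among them. This leaves the size for each uncertain, but all 3 were lower. CXCL10, whose groups overlapped, lost its call on leaving out any of 3 libraries (control replicate 2 or 3, PELP1-KD replicate 2). Its adjusted p was then up to 0.187. Of the 53, 49 had a window around the start, and 25 of these (51.0%) held the ISRE core, beside 3.29% of all windows. This counts targets whatever their call. The list was drawn up from known interferon targets, so the share describes the list and not a change in these libraries.

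Of 16 negative regulators of the pathway 6 were called higher (37.5%) and 3 lower (18.75%), where 26.8% of all tested genes were called in each direction. TNFAIP3, an inhibitor of NF-kB signalling, rose by a log2 fold change of 0.83 and SOCS2 by 1.70, while PIAS1 (−0.27) and PIAS3 (−0.29) were lower. Of 12 NF-kB and AP-1 partners 4 were called higher (33.3%), among them NFKB2 (0.51) and RELB (0.34), and 3 lower (25%), among them JUN (−0.36) and NFKBIE (−0.41), again near the shares of all tested genes. Over all 140 tested genes of these lists, 63 were called higher (45%) and 32 lower (22.9%). Without the interferon-stimulated targets, 34 of 102 were called higher (33.3%) and 28 lower (27.5%), beside 26.8% each way over all tested genes.

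**Figure D4:**
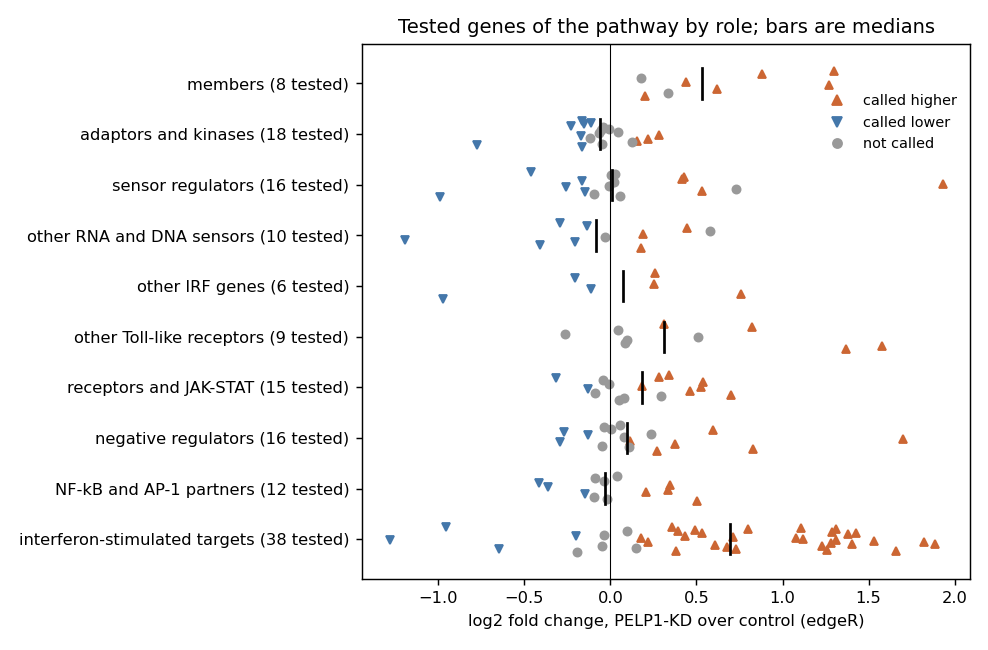
Log2 fold change of PELP1-KD over control (x axis) for every tested gene of the set and of the pathway lists, by role, with triangles up for genes called higher, triangles down for genes called lower, circles for genes not called and a bar for the median of each list. The 8 sensor and factor genes and the interferon-stimulated targets have medians of 0.53 and 0.70, and the other lists lie between −0.08 and 0.31.

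The genes whose levels followed IFIH1 and IRF1 most closely over the 6 libraries were found by Pearson's r of log2 CPM, as a description in which all genes share the same libraries. For IFIH1 these were PLAU (r = 0.99978), PARM1 (r = 0.99977) and CYP1B1 (r = 0.99959). For IRF1 they were SIPA1L2 (r = 0.99986), HCAR3 (r = 0.99967) and FAM113B (r = 0.99958). An r above 0.99 was found for 405 genes with IFIH1 and for 446 with IRF1. With groups this far apart, so high an r mainly reflects the step between them.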

How the data were processed

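RNA-seq of 6 Hep3B libraries was analysed, 3 control and 3 labelled PELP1-KD, grouped by their treatment labels. Per the file headers, the authors counted reads with featureCounts 1.5.0-p1 by strand on hg19 exons, with a minimum mapping quality of 2, sharing reads of several places or genes as fractions. The deposited table therefore gives estimated counts, without normalization. The paper's methods name TopHat2 and HTSeq instead, and the submitters' processing notes HISAT2 and featureCounts. The series design text and the sample labels conflict on RNA extraction (RNeasy or TRIzol) and library kit (TruSeq Stranded mRNA or KAPA RiboErase). Nothing says that replicates were separate cultures, so p values measure the spread between libraries, which may be technical.

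These were rounded to integers. Of 23228 genes, 14537 passed filterByExpr, and the main test was edgeR 4.0.16 (glmQLFit with robust estimation, glmQLFTest, TMM, R 4.3.3) without a replicate block. For normalized reads, each library was divided by its TMM-scaled size, set relative to the geometric mean of the sizes. The standard error was taken as the size of the log2 FC divided by the root of F, and 95% intervals use the total degrees of freedom of the fit. The median standard error was 0.063. Where all reads of a gene are at or under 3, a difference is treated as not detectable, which covers counting error only.

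The genes and lists were chosen with earlier results of these data known. Named pathway genes are, per list, the 2 called genes with the smallest p in each direction without overlap between groups, plus MAVS, TBK1, IFNB1, IFNAR1 and IFNAR2. Values of some listed genes are not reported here. The genes of closest pattern are the 3 with the highest r for the sensor and for the factor with the smallest p. DESeq2 1.42.0 and the other alternatives are given at the end. The methods were tested on simulated counts in which far fewer genes changed than were called here. Error rates with so many changed genes were not tested.

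Replicate numbers come from the titles. Deviations from group means of same-numbered libraries correlated at 0.336, 0.247 and 0.666 over 6370 genes. The main test did not use the numbers, and a replicate block by them was tried as an alternative. Replicates 1 and 2 also correlated crosswise, control 2 with PELP1-KD 1 at 0.418 and control 1 with PELP1-KD 2 at 0.244, so only replicate 3 was set apart. Replicates differed by more than sampling noise (chi-square per degree of freedom 1.94 to 7.02), so each was counted once.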

Additional observations from a re-analysis of the deposited data

How the results depend on the processing

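Tried instead were edgeR with size factors of DESeq2 or with upper quartiles, the test of DESeq2 itself, no low-count filter, a minimum of 10 reads per library, unrounded counts, a replicate block, leaving out single libraries, and for counts an adjusted p below 0.01. The 8 tested genes kept their direction in all 104 values this gave. The call changed in 2 of them, both for DDX58, as given with that gene. The 6 genes called higher were called in each fit at 0.05. The median log2 fold change of the set was 0.53, and 0.62 with no filter, since DHX58 with its few reads then entered. It lay between 0.50 and 0.58 with each library left out. The adjusted p below 0.01 left 21 pathway genes called lower, where 0.05 gave 32. With the replicate block PELP1 was called at −0.083 (adjusted p = 0.0106), and with each library left out its log2 fold change lay between −0.10 and −0.040, called only without PELP1-KD replicate 3 (adjusted p = 0.018). The block raised the calls over all genes from 7788 to 8828 and changed no call of the set other than that of DDX58. For 45 other genes named, these fits were added after the values had been seen. They kept their side of the threshold in 577 of 585 values, and 8 lost the call, all with a library left out. Depth limits DHX58, IRF7 and the interferon genes most.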

Other observations

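Of the 53 interferon-stimulated targets, 15 were below the filter on low counts. In normalized reads, 10 of these overlapped between the groups (IFI44L had 0 reads), 5 were higher in every library labelled PELP1-KD than in any control (33.3%), and 0 were lower. No test was run on them. Of all genes below the filter with a read, 6.59% were higher in this way and 7.46% lower. These genes were not matched to the targets in number of reads, and they leave out genes at 0 such as IFI44L. The 5 genes were named after their values had been seen. OAS2, a relative of OAS3, had 0 reads in each of 3 controls against 5, 3 and 2 under the PELP1-KD label. SAMD9L had 0, 2 and 1 reads in control against 5, 12 and 8. RTP4 had 0, 0 and 2 reads in control against 10, 5 and 6. RSAD2 had 0, 1 and 0 against 1, 3 and 1, and was tied in reads before scaling. All its values were at or under 3 reads, where a difference is treated as not detectable, although it is among the 5. PSMB9 had 4, 3.2 and 0 against 15, 5 and 7.2, with exons on several sequences of the build, so its value is uncertain. The counts of these 5 genes are too small for a fold. TAP1 and PSMB8, also below the filter, and HLA-E, tested and not called, likewise had exons on several sequences. Their values are uncertain too.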
